A study of Mus musculus with 6 samples.

Results

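The genes described here encode subunits of NADPH oxidases, enzymes that pass electrons from NADPH to oxygen and release superoxide or hydrogen peroxide. The 7 genes were set by name and are Cybb, Cyba, Ncf1, Ncf4, Nox4, Rac1 and Rac2, out of 54232 genes in the deposited count table. They were read in tibialis anterior, a fast muscle of the lower hind leg, from C57BL6 mice aged 1 month. Of the 6 stranded mRNA libraries, 3 came from wild-type mice (WT 1 to 3) and 3 from mice in which exon 51 of the dystrophin gene Dmd had been deleted (dEx51 4 to 6). The genotype is the sole stated difference between the groups, and no treatment is given for either. The labels call the libraries biological replicates and do not state sex or litter, so p-values measure the spread between these libraries.

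The phagocyte oxidase is built on a membrane pair, the catalytic subunit NOX2 (gene Cybb) and its stabilising partner (Cyba). It stays inactive until cytosolic subunits, Ncf1 and Ncf4 products among them, and a Rac GTPase join the pair at the membrane. Rac2 is the Rac of blood cells, whereas Rac1 is made in nearly all cells and also steers the actin cytoskeleton. NOX4 (Nox4) needs Cyba but not the cytosolic subunits, gives mainly hydrogen peroxide, and is known from vessels, fibroblasts, kidney and muscle. In muscle, NOX2 has been described in the fibres as well as in macrophages, so a transcript level in whole tissue does not say which cells hold it.

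The deposited counts summed to between 15681945 and 21020353 per library. Dmd stood at 235 to 266 CPM (counts scaled to a common library total) in WT, against 46.4 to 51.1 CPM in dEx51. The share of counts from the mitochondrial genome was 19.4% to 21.05% in WT and 13.4% to 14.8% in dEx51. Fast muscle fibre markers summed to between 119416 and 122277 CPM in WT, to 79071 and 76688 CPM in dEx51 4 and 5, and to 107855 CPM in dEx51 6, so dEx51 6 stood nearer to WT. CPM values carry TMM scaling (trimmed mean of M values), log2 fold changes are dEx51 over WT, and a gene was called where the adjusted p of the edgeR quasi-likelihood test over 14335 genes was under 0.05.

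Of the 7 genes, 6 rose in dEx51 muscle (Cybb, Ncf4, Ncf1, Rac2, Cyba and Nox4) and 0 fell. Rac1 was not called. Of all genes tested, 16.1% were called higher and 11.9% lower. In the 6 genes that rose every dEx51 library lay above every WT library, as in 23.8% of all genes tested. The rises ran from 2.72-fold for Nox4 to 10.5-fold for Cybb, and the median log2 fold change of the 7 genes was 2.48, against -0.01 for all genes tested. The count of 6 higher held in the fit without dEx51 6 and without each other library, while scaling to library size alone gave 7 higher, the added gene being Rac1. That scaling gave 5394 genes higher and 334 lower in the whole table, against 2309 and 1701 with TMM. In whole muscle, more cells of a type and more RNA per cell cannot be told apart.

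**Figure D1:**
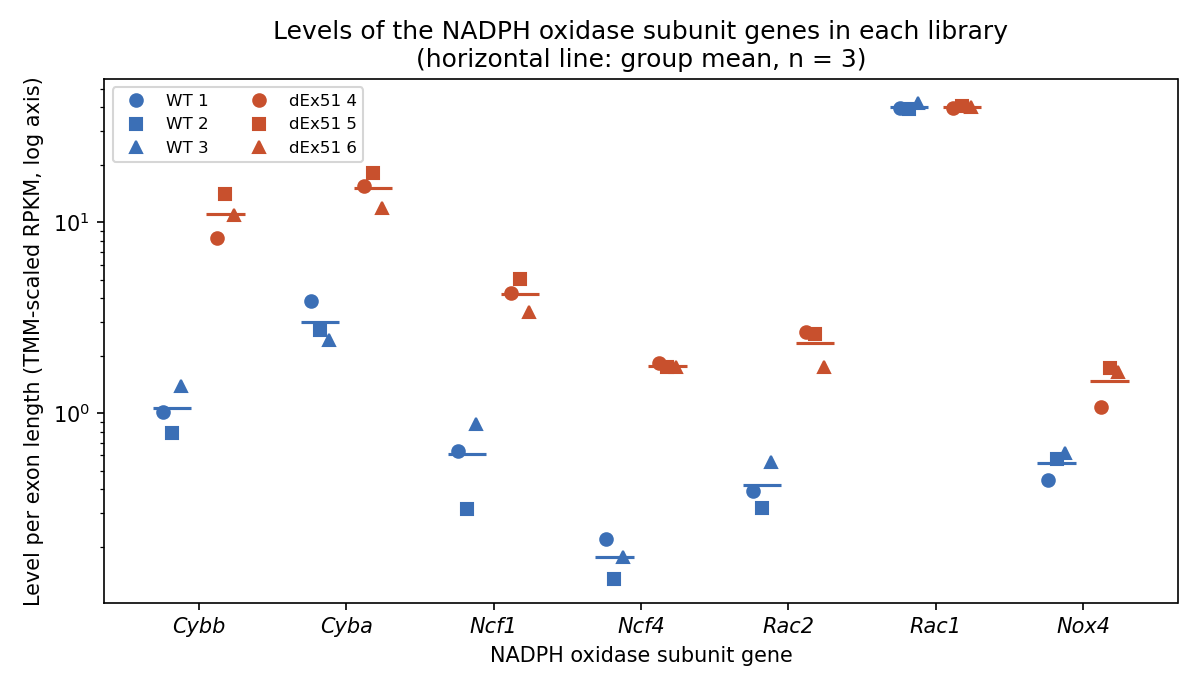
TMM-scaled level per kilobase of exon (RPKM, log axis) of the 7 subunit genes in each of 6 libraries, WT in blue and dEx51 in red, with the group mean as a line (n = 3). The groups are apart for 6 genes, and Rac1 lies between 39.3 and 42.2 RPKM in all 6 libraries.

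Promoter sequence is shown for the subunit genes that RefSeq gives a start for here, 4 of 7: Cybb, Cyba, Ncf1 and Nox4. Ncf4, Rac1 and Rac2 had no window. Each line is the 250 bases before the start site on GRCm38.p6, written 5′ to 3′ on the gene's strand. Cybb lies on the reverse strand at chrX:9469325-9469574, Cyba on the reverse strand at chr8:122432941-122433190, Ncf1 on the reverse strand at chr5:134229626-134229875 and Nox4 on the forward strand at chr7:87246399-87246648. Capitals mark the GC box GGGCGG on either strand.
Cybb: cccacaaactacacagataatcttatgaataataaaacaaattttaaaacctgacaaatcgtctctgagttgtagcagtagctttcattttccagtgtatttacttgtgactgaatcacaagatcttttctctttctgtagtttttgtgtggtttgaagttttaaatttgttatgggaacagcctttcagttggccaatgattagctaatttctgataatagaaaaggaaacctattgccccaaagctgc
Cyba: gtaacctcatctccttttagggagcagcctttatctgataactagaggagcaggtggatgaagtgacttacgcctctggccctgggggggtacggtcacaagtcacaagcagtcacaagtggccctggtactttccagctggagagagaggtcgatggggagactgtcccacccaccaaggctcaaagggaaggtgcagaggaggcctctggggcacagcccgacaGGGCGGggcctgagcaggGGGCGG
Ncf1: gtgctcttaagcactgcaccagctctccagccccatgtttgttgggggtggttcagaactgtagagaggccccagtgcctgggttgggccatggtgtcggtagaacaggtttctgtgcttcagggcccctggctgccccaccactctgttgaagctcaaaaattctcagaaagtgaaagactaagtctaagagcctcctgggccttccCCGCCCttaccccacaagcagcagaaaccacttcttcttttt
Nox4: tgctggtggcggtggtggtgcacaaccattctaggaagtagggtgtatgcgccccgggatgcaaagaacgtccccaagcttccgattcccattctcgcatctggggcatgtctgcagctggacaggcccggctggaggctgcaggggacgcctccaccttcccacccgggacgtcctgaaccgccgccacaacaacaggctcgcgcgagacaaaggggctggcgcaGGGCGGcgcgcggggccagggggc

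The Cybb window had the lowest share of G and C, 34.0%, and only 3.87% of 32851 RefSeq promoter windows of the same length were lower. The Ncf1, Cyba and Nox4 windows held 54.4%, 60.0% and 67.2%. A GC box was found in Cyba (2 matches), Ncf1 (1) and Nox4 (1) and not in Cybb, and 32.7% of all windows held at least 1. Both strands were also searched for GAGGAA, a form of the site of PU.1, a transcription factor of macrophages. The AP-1 site TGACTCA and the hypoxia element core ACGTG were searched for as well. No match was found in the 4 windows, which says only that these letters are not there. Other forms of the PU.1 site were not searched for, and the shorter GGAA can be read in all 4 windows. These motifs occurred in 23.3%, 4.46% and 16.6% of all windows, and none of the 4 motifs contains another.

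Both genes of the membrane pair rose. Cybb (ENSMUSG00000015340, reverse strand of chromosome X, 9435252 to 9487771 in GRCm38) encodes NOX2, the subunit that carries the electrons across the membrane. It stood at 5.87, 4.55 and 8.09 CPM in WT 1 to 3, against 48.1, 81.3 and 63.0 CPM in dEx51 4 to 6. The lowest dEx51 library was thus well above the highest WT library. The group means were 6.17 ± 1.79 and 64.1 ± 16.6 CPM (SD, n = 3 each), a log2 fold change of 3.39 (SE 0.255, edgeR adjusted p = 2.98e-04) and a 95% interval of 6.99- to 15.8-fold. GENCODE M21 also holds a Cybb transcript that starts upstream of the printed promoter, at 9487771, and counts per gene do not separate the starts.

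Cyba (ENSMUSG00000006519, reverse strand of chromosome 8, 122424776 to 122432930) encodes the small membrane partner that NOX2 and NOX4 share. It stood at 4.04, 2.85 and 2.51 CPM in WT 1 to 3, against 16.1, 18.8 and 12.3 CPM in dEx51 4 to 6. The groups were apart, with dEx51 6 the lowest of its group. The means were 3.13 ± 0.804 and 15.7 ± 3.25 CPM (n = 3 each), a log2 fold change of 2.32 (SE 0.224, edgeR adjusted p = 6.93e-04). Per length, Cyba was above Cybb in every library, by 1.73 to 3.85 times in WT and by 1.09 to 1.87 times in dEx51. The log2 ratio of Cybb to Cyba was higher by 1.05 in dEx51, but the groups overlapped (exact permutation p = 0.20, two-sided, Benjamini-Hochberg value 0.30 over 18 ratios). With 3 against 3 libraries the smallest exact p is 0.10.

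The cytosolic subunit genes rose as well. Ncf1 (ENSMUSG00000015950, reverse strand of chromosome 5, 134220053 to 134229625) encodes the organizer subunit, which is phosphorylated on activation and bridges to Cyba. It stood at 2.32, 1.15 and 3.22 CPM in WT 1 to 3, against 15.6, 18.4 and 12.4 CPM in dEx51 4 to 6. All 3 dEx51 libraries were above WT 3, the highest WT library. The means were 2.23 ± 1.04 and 15.5 ± 3.01 CPM (n = 3 each), a log2 fold change of 2.82 (SE 0.312, edgeR adjusted p = 0.00109). Of the 50-base words of its transcripts, 7.45% also occur in other transcripts, mainly of Gtf2ird2, which overlaps Ncf1 on the opposite strand. Gtf2ird2 itself (9.45 ± 0.270 CPM in WT, 7.43 ± 0.483 CPM in dEx51) missed the threshold, at a log2 fold change of -0.35.

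Ncf4 (ENSMUSG00000071715, forward strand of chromosome 15, 78244801 to 78262580) encodes a subunit that binds phosphoinositide lipids on phagosomes. It was the scarcest subunit gene in WT, with 8, 5 and 5 reads in WT 1 to 3 (0.443, 0.274 and 0.358 CPM), against 86, 81 and 68 reads in dEx51 4 to 6 (3.68, 3.54 and 3.53 CPM). The dEx51 libraries were nearly level with each other. The means were 0.358 ± 0.0843 and 3.58 ± 0.0821 CPM (n = 3 each), a log2 fold change of 3.301 (SE 0.254, edgeR adjusted p = 3.18e-04). The few WT reads limit the precision of this fold. Its SE was still close to that of Cybb (0.255), so its 95% interval, 6.57 to 14.8, may be too narrow. Per length, Ncf1 exceeded Ncf4 by 2.32 to 4.96 times in WT and by 1.94 to 2.87 times in dEx51, and the groups overlapped (exact permutation p = 0.40).

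Of the 2 Rac genes, Rac2 rose and Rac1 was not called. Rac2 (ENSMUSG00000033220, reverse strand of chromosome 15, 78559167 to 78572783) stood at 1.22, 0.986 and 1.72 CPM in WT 1 to 3, against 8.21, 8.05 and 5.40 CPM in dEx51 4 to 6. Every dEx51 library exceeded every WT library, and dEx51 6 was the lowest of its group. The means were 1.31 ± 0.375 and 7.22 ± 1.58 CPM (n = 3 each), a log2 fold change of 2.48 (SE 0.267, edgeR adjusted p = 0.00104).

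Rac1 (ENSMUSG00000001847, reverse strand of chromosome 5, 143503634 to 143528036) stood at 178, 177 and 190 CPM in WT 1 to 3, against 178, 182 and 181 CPM in dEx51 4 to 6. The groups overlapped. The log2 fold change was -0.01 (SE 0.0815, edgeR adjusted p = 0.943), with a 95% interval from 0.872- to 1.13-fold. This direction rests on the scaling: at library size alone, which moved the median of all genes to 0.34, Rac1 was also at 0.34 and was called higher (edgeR adjusted p = 0.0172). Rac1 overlaps Daglb on the opposite strand, and 50.3% of the 50-base words of its transcripts also occur there. The libraries are stranded, but whether the authors counted by strand is not stated in the labels, so reads of the 2 genes may not be fully separated. Daglb was at 12.3 ± 0.882 and 15.2 ± 1.51 CPM (0.31, not called), far below Rac1.

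Per length, Rac1 exceeded Rac2 by 101, 124 and 76.1 times in WT 1 to 3 and by 14.96, 15.6 and 23.1 times in dEx51 4 to 6. Rac1 was the more abundant in all 6 libraries. The log2 ratio of Rac2 to Rac1, which does not depend on library scaling, was -6.62 ± 0.352 in WT and -4.13 ± 0.347 in dEx51. The difference of 2.49 had no overlap between groups (exact permutation p = 0.10, the smallest possible, Benjamini-Hochberg value 0.18 over 18 ratios).

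Nox4 (ENSMUSG00000030562, forward strand of chromosome 7, 87246096 to 87398710) rose least among the genes that were called. It stood at 3.76, 4.88 and 5.23 CPM in WT 1 to 3, against 9.07, 14.6 and 14.0 CPM in dEx51 4 to 6. The groups were apart, and dEx51 4 was the lowest of its group. The means were 4.62 ± 0.765 and 12.5 ± 3.02 CPM (n = 3 each), a log2 fold change of 1.44 (SE 0.218, edgeR adjusted p = 0.00333, 95% interval 1.92- to 3.85-fold). Per length, Cybb exceeded Nox4 by 1.36 to 2.27 times in WT and by 6.58 to 8.14 times in dEx51. The log2 ratio of Nox4 to Cybb was lower by 1.96 in dEx51 with no overlap (mean -0.93 in WT and -2.90 in dEx51, exact permutation p = 0.10, Benjamini-Hochberg value 0.18). GENCODE M21 also holds a Nox4 transcript that starts upstream of the printed promoter, at 87246096, so that window lies inside the annotated gene, and the counts do not separate these starts either.

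Ordered per length, the WT muscle held Rac1 (40.4 ± 1.58 RPKM), Cyba (3.01 ± 0.774), Cybb (1.06 ± 0.309), Ncf1 (0.609 ± 0.284), Nox4 (0.546 ± 0.0903), Rac2 (0.421 ± 0.121) and Ncf4 (0.177 ± 0.0418). The ranges of Cybb and Ncf1, of Ncf1 and Nox4, and of Nox4 and Rac2 overlapped. In dEx51 the order was Rac1 (40.1 ± 0.434 RPKM), Cyba (15.1 ± 3.13), Cybb (11.04 ± 2.86), Ncf1 (4.23 ± 0.821), Rac2 (2.33 ± 0.509), Ncf4 (1.77 ± 0.0406) and Nox4 (1.48 ± 0.356). There the ranges of Cyba and Cybb and of Rac2 and Ncf4 overlapped. Nox4, which lay above Ncf4 in every WT library, lay below Ncf4 in every dEx51 library. The gap in dEx51 was narrow: the highest Nox4 value was 1.72 RPKM and the lowest Ncf4 value 1.75 RPKM. Orders and ratios between genes depend on the deposited exon lengths, 8471 bases for Nox4 and 2020 for Ncf4.

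The dEx51 libraries did not rank alike for all subunits. The rise of dEx51 6 over the WT mean was 60.0% of that of dEx51 4 and 5 for Rac2, 64.1% for Cyba and 68.8% for Ncf1. It was 97.2% for Cybb, 97.5% for Ncf4 and 130% for Nox4. Without dEx51 6 the log2 fold changes of the 6 genes that rose kept their sign and their call.

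Beyond the 7 genes, 12 other oxidase and partner genes were read and 4 were tested, of which 2 rose and 1 fell. Hvcn1, the proton channel that balances charge while the phagocyte oxidase works, rose from 0.351 ± 0.171 to 3.13 ± 1.01 CPM (log2 fold change 3.17, edgeR adjusted p = 0.00206). Cybc1, listed in the files under the symbol BC017643, encodes a chaperone of the membrane pair and rose less (5.15 ± 0.494 to 8.88 ± 1.23 CPM, 0.78, edgeR adjusted p = 0.00900). Poldip2, which encodes a protein that binds Cyba and stimulates NOX4, was at 94.9 ± 4.06 and 77.2 ± 0.949 CPM and was called lower (-0.30, edgeR adjusted p = 0.0257). That call ended without WT 1 (-0.30), WT 2 (-0.28), dEx51 4 (-0.30) or dEx51 5 (-0.28) and with no filter on low counts (-0.28), and at library size alone the value was 0.05. Duox1, a calcium-driven oxidase gene, missed the threshold (0.584 ± 0.261 CPM in WT, 0.598 ± 0.262 CPM in dEx51).

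Of the 8 partner genes not tested, Nox3, Noxa1 and Duoxa2 had 0 counts in all 6 libraries, which allows up to 0.128 to 0.215 CPM per library (3 counts, counting error only). Nox1, Noxo1, Duox2, Duoxa1 and Rac3 had at most 25 counts in any library. Only Cybb and Nox4, of the 6 catalytic oxidase genes read (Cybb, Nox1, Nox3, Nox4, Duox1 and Duox2), reached a mean of 1 CPM in either group.

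**Figure D2:**
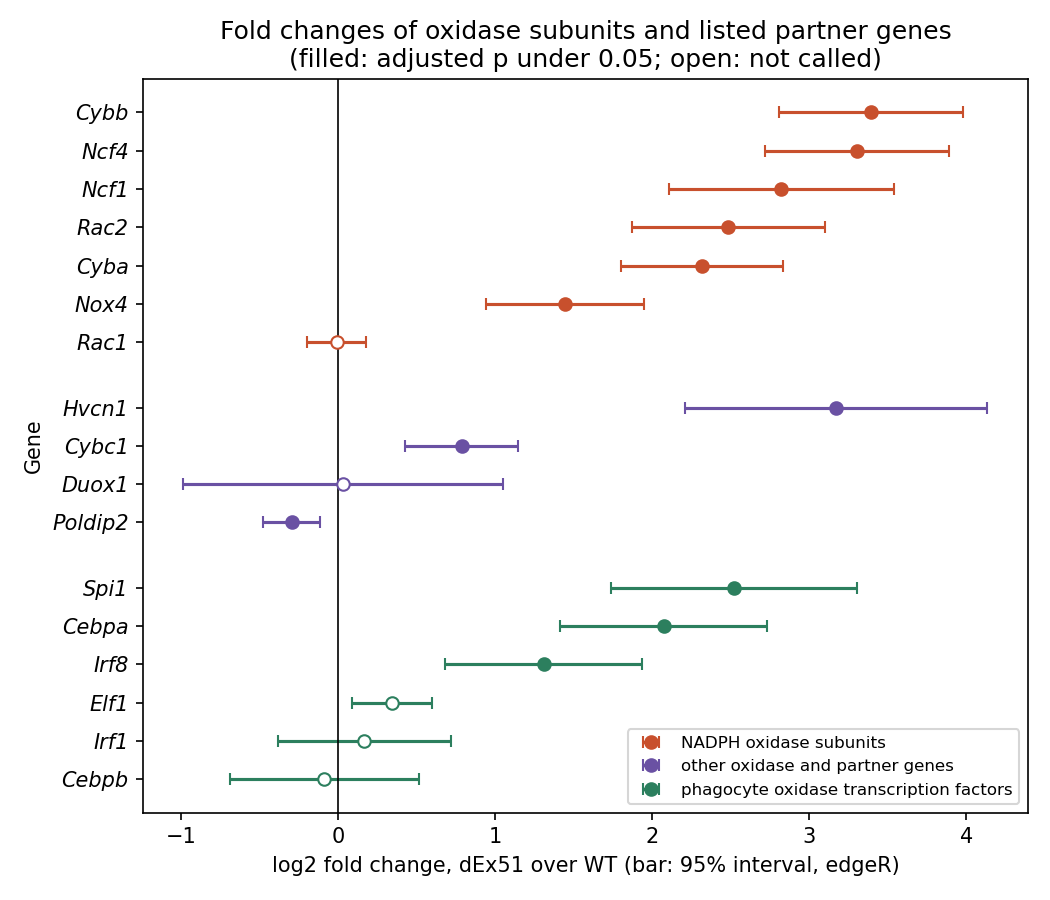
Log2 fold change of dEx51 over WT with its 95% interval (edgeR, n = 3 a group) for the 7 subunit genes, the 4 tested partner genes and the 6 tested transcription factors, filled where called. The interval of Rac1 spans 0, and Cybb, Ncf4 and Hvcn1 lie above 3.

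Among 22 genes that regulate Rac or the oxidase or act downstream of Rac, 15 rose and 1 fell (median log2 fold change 0.87). Library-size scaling gave 18 higher and 0 lower, and leaving out 1 library gave between 12 and 16 higher. The 15 include inhibitors of Rac as well as activators: Arhgdia (log2 fold change 0.68) and Arhgdib (1.45), which encode proteins that hold Rac in the GDP form, and Arhgap15 (1.19), which encodes a GTPase-activating protein of Rac. The calls of Arhgdia and Arhgap15 ended without WT 2 (0.66 and 1.03), and that of Arhgap15 also without dEx51 5 (0.93). Pik3r5, a regulator of phosphoinositide 3-kinase gamma, rose from 1.10 ± 0.364 to 7.91 ± 0.744 CPM (2.86, edgeR adjusted p = 4.57e-04). The Rac exchange factor genes Vav1 and Dock2 rose from 0.875 ± 0.390 to 7.69 ± 2.81 CPM (3.13) and from 2.36 ± 1.32 to 18.3 ± 2.10 CPM (2.99). Syk, the kinase that links Fc receptors to the oxidase, rose from 5.63 ± 1.67 to 27.5 ± 5.64 CPM (2.30), and the Rac effector kinase Pak1 from 19.9 ± 2.05 to 43.6 ± 2.84 CPM (1.13). Tiam1, another Rac exchange factor, was lower, at 10.6 ± 1.83 and 5.40 ± 1.38 CPM (-0.97, edgeR adjusted p = 0.0121), a call that ended at library size alone (-0.61).

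Of 7 transcription factors known to drive phagocyte oxidase genes, 6 were tested, 3 rose and 0 fell. Spi1, which encodes PU.1, rose from 1.53 ± 0.581 to 8.72 ± 2.73 CPM (2.52, edgeR adjusted p = 0.00227). Cebpa rose from 3.83 ± 0.859 to 16.1 ± 5.52 CPM (2.07) and Irf8 from 5.77 ± 1.36 to 14.2 ± 4.83 CPM (1.31, edgeR adjusted p = 0.0106). Irf1, Cebpb and Elf1 were not called (0.16, -0.09 and 0.34). At library size alone, without dEx51 6 and by limma-voom, 4 were called higher, Elf1 being the added gene.

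Genes listed for the supply of NADPH, the electron donor, were mixed: of 8 tested, 3 rose and 2 fell (median 0.12). Pgd and G6pdx, enzymes of the oxidative pentose phosphate pathway, rose from 13.4 ± 1.21 to 28.7 ± 4.55 CPM (1.09, edgeR adjusted p = 0.00171) and from 4.26 ± 0.600 to 9.01 ± 2.34 CPM (1.08). Tkt, of the non-oxidative branch of the pentose phosphate pathway, which itself makes no NADPH, was called higher (0.91). The call of Tkt ended when WT 2 (0.77), WT 3 (0.85), dEx51 4 (0.83) or dEx51 5 (0.81) was left out. The malic enzyme gene Me1 fell from 265 ± 5.97 to 159 ± 39.0 CPM (-0.74, edgeR adjusted p = 0.0128). Idh2, a mitochondrial NADPH source, was called lower (-0.94), a call that ended at library size alone (-0.56) and when WT 1 (-1.01), WT 2 (-0.72) or dEx51 4 (-0.99) was left out.

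Of 5 tested enzyme genes that make or remove superoxide and peroxide, 1 rose and 1 fell. Sod2, the mitochondrial superoxide dismutase, stood at 511, 561 and 527 CPM in WT 1 to 3, against 320, 282 and 334 CPM in dEx51 4 to 6 (-0.77, edgeR adjusted p = 0.00225). Sod3, the secreted form, rose from 6.60 ± 2.13 to 14.9 ± 4.13 CPM (1.17, edgeR adjusted p = 0.0145) and lost its call without WT 2 (1.06). The cytosolic Sod1 missed the threshold (74.1 ± 5.16 CPM in WT, 76.5 ± 9.03 CPM in dEx51, 0.04), though at library size alone it was called higher (0.39). The catalase gene Cat also missed the threshold (130 ± 18.0 CPM in WT, 97.5 ± 16.7 CPM in dEx51, -0.41, edgeR adjusted p = 0.0729). It was called lower without WT 1 (-0.53) or dEx51 5 (-0.55). With all 6 libraries, Cat was called lower with no filter on low counts (-0.40), with a block for replicate number (-0.42) and by limma-voom with quality weights (-0.46). The neutrophil peroxidase gene Mpo had 0 counts in all libraries.

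Most leukocyte markers that were tested rose in dEx51, as did 6 of the 7 subunit genes. All 5 pan-leukocyte markers (Ptprc, Laptm5, Coro1a, Cd53 and Cd52) rose, and their sum went from 9.42 to 26.7 CPM in WT to 111 to 186 CPM in dEx51. Of 10 macrophage and monocyte markers 9 rose and 0 fell, with sums of 165 to 264 CPM and 591 to 1218 CPM. The neutrophil list had 1 of 11 genes tested, Csf3r, which rose, and the sum of the list overlapped between groups (0.493 to 3.29 and 3.22 to 10.4 CPM). Of the others, Ly6g and Elane were at 0 in all libraries. Mmp8 had 1 count in each WT library and 19, 30 and 4 counts in dEx51 4 to 6. Ltf and Ngp went the other way, with 8 and 9 counts in WT 3 and at most 1 in every other library. Without dEx51 6, 3 genes of the list were tested and 2 were called higher. Lymphocyte markers (2 of 10 tested, both called higher) summed to 1.22 to 2.08 CPM and 3.55 to 4.31 CPM, and without WT 1, WT 2, dEx51 4, dEx51 5 or dEx51 6 only 1 of them was called. The part of these cells in the rise of the subunit genes was not tested.

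**Figure D3:**
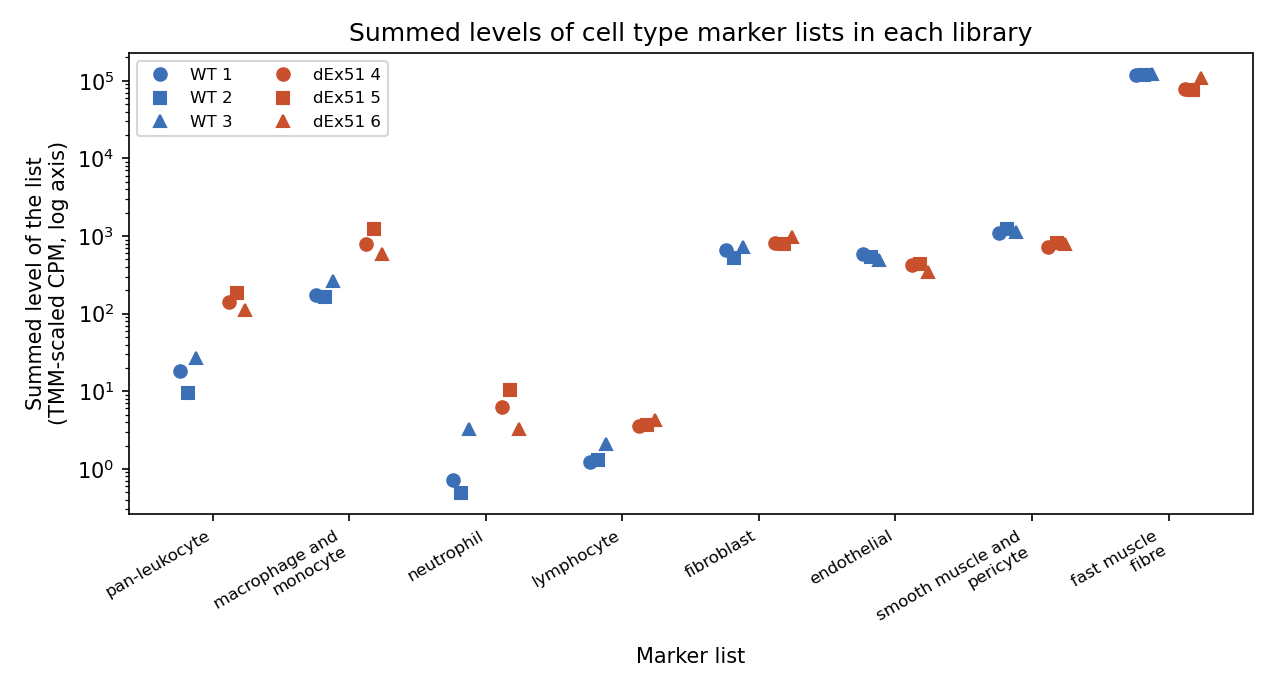
Summed TMM-scaled CPM (log axis) of 8 cell type marker lists in each of 6 libraries, WT in blue and dEx51 in red. The pan-leukocyte and macrophage sums of all dEx51 libraries lie above those of all WT libraries, and the endothelial sums lie below.

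Other marker lists differed in direction. Of 6 fibroblast markers 3 rose and 0 fell (sums 527 to 716 and 794 to 983 CPM). Of 8 endothelial markers 0 rose and 4 fell (488 to 580 and 344 to 431 CPM), and of 6 smooth muscle and pericyte markers 0 rose and 3 fell (1105 to 1214 and 719 to 812 CPM). At library size alone 0 endothelial markers were called, and of the smooth muscle and pericyte markers 1 was called higher and 2 lower. Of 8 fast muscle fibre markers 0 were called by the edgeR quasi-likelihood test, and 3 had an unadjusted p under 0.05 there. The edgeR likelihood-ratio and exact tests each called 3 lower, limma-voom 2 and DESeq2 4. Library size alone gave 0 called. Without dEx51 6 the quasi-likelihood test called all 8 lower. The part of fibroblasts or vessels in the level of Nox4 was not tested.

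Set against the pan-leukocyte sum of the same library, the log2 ratios of Cybb, Cyba, Ncf1, Ncf4 and Rac2 differed between groups by -0.77 to 0.28. The log2 ratio of Cybb to that sum was higher by 0.28 in dEx51, with overlap (exact permutation p = 0.40). For Ncf1 it was -3.02 ± 0.0356 in WT and -3.23 ± 0.0928 in dEx51, lower by 0.21 with no overlap. For Rac2 it was -3.71 ± 0.393 and -4.34 ± 0.209, lower by 0.63 with no overlap (for both, exact permutation p = 0.10 and Benjamini-Hochberg value 0.18). The ratios of Cyba and Ncf4 overlapped between groups (differences -0.77 and 0.24). The ratio of Nox4 was lower by 1.68 and that of Rac1 by 3.11, both with no overlap.

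Against the macrophage and monocyte sum, the picture differed by gene. The log2 ratio of Cybb was -5.04 ± 0.143 in WT and -3.72 ± 0.430 in dEx51, higher by 1.31 with no overlap. Ncf4 was higher by 1.28 and Ncf1 by 0.83, also with no overlap (exact permutation p = 0.10 and Benjamini-Hochberg value 0.18 for these 3). Cyba, Rac2 and Nox4 overlapped between groups (0.27, 0.41 and -0.65), and the ratio of Rac1 was lower by 2.08 with no overlap. Lyz2, a lysozyme gene and an abundant part of that sum, rose from 37.5 ± 14.3 to 467 ± 245 CPM.

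**Figure D4:**
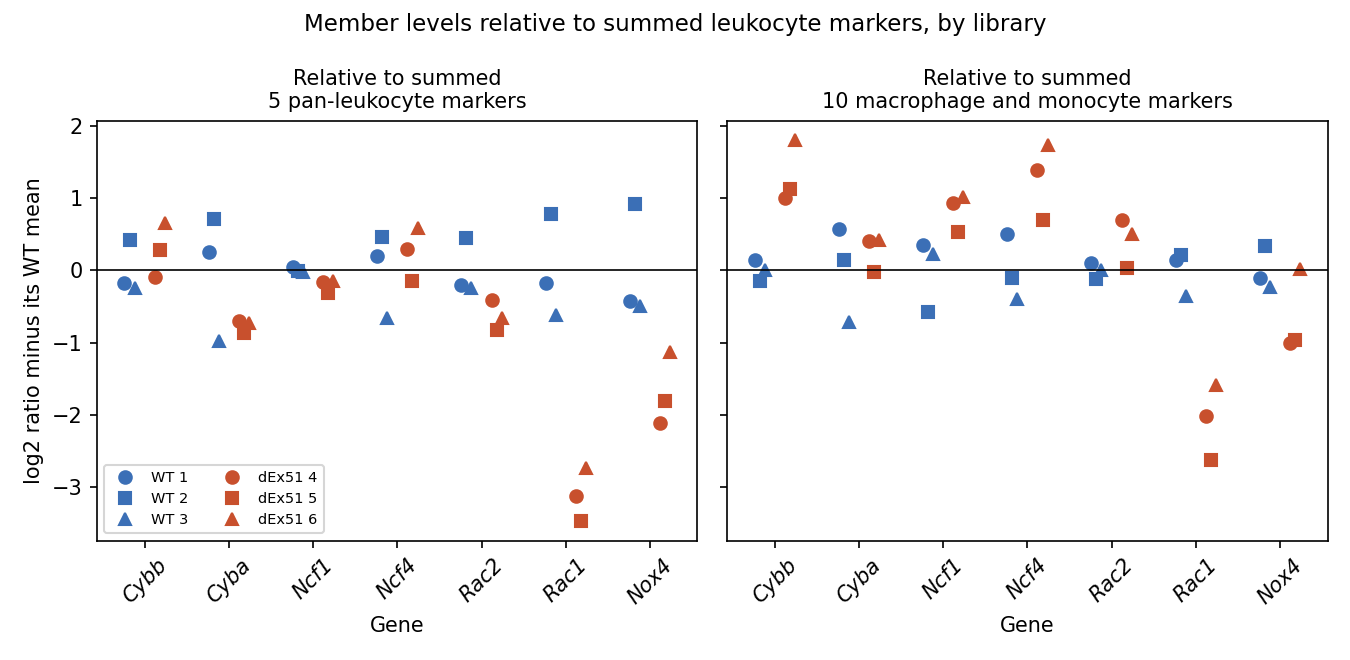
Log2 ratio of each subunit gene to the summed pan-leukocyte markers (left) and macrophage and monocyte markers (right) of the same library, minus the WT mean of that ratio, WT in blue and dEx51 in red. Rac1 lies lowest in dEx51 in both panels, and Cybb lies above all WT libraries in the right panel only.

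The genes whose pattern over the 6 libraries was most like each subunit were ranked by the root mean square difference of log2 CPM centred on the WT mean. These log2 CPM carried a prior count of 2, which shrinks the differences of genes with few reads. The candidates were 9423 or 9424 genes of at least 5 CPM on average. Igsf6, Slc11a1 and Serpina3n were nearest to Cybb (0.20, 0.28 and 0.31 log2 units), and Evi2a, Cstb and Tubb6 to Cyba (0.05, 0.15 and 0.16). Hpgds, Slc38a1 and Fcgr2b were nearest to Ncf1 (0.09, 0.16 and 0.17), and Tmsb10, Plek and Ppfia4 to Ncf4 (0.21, 0.23 and 0.24). The last 3 had edgeR log2 fold changes of 2.88, 2.90 and 2.83, below the 3.301 of Ncf4. C5ar1, Soat1 and Csf2ra were nearest to Rac2 (0.09, 0.14 and 0.15). Commd1, Washc5 and Nemf were nearest to Rac1 (0.01, 0.02 and 0.02). Mertk, a phagocytic receptor gene, was nearest to Nox4, at 0.16, before Stk17b (0.19) and Ctxn3 (0.20). This likeness is a description of 6 libraries in which the genotype is the main difference.

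In the authors' deposited table, the log2 fold changes are 3.35 for Cybb, 2.29 for Cyba, 2.77 for Ncf1, 3.27 for Ncf4, 2.44 for Rac2, 1.41 for Nox4 and -0.04 for Rac1. The adjusted p in the authors' deposited table is 0.743 for Rac1 and at most 4.41e-06 for the other 6 genes.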

How the data were processed

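Stranded mRNA libraries of tibialis anterior muscle were made from 3 WT and 3 dEx51 mice. Per the submitters' processing notes the tools were FastQC 0.11.4, featureCounts 1.6.0 and edgeR 3.30.1 on GRCm38 (mm10), and the sources used here do not give the aligner, the strand setting or the annotation release. Deposited files hold unnormalized counts by gene, with exon lengths (15681945 to 21020353 counts per library) and RPKM values of 13958 genes. The authors' deposited table gives log2 fold changes and log2 CPM, a likelihood-ratio score, p-values and −log10 p-values, per the file headers.

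The counts were tested with edgeR 4.0.16 (quasi-likelihood F-test, TMM, default filter by group, Benjamini-Hochberg over 14335 genes, two-sided) in R 4.3.3, where all 7 subunit genes passed the filter. SEs were back-calculated from the F statistic. RPKM of the text were computed from counts, TMM scaling and exon length. Ratios of genes within a library were compared by exact permutation. The test was checked on simulated counts. Positions and 50-base words come from GENCODE M21, promoters from RefSeq on GRCm38.p6. Named genes are the 7, up to 5 called genes per list and direction, by smallest adjusted p, Cybc1, Spi1 and the 3 most alike genes, leaving out predicted genes and pseudogenes. A planned comparison of subunit proteins was not run, and 1 partner gene of the plan is left out of its list and not reported here. Not called genes of the lists, the Rac inhibitors, markers and overlapping genes named beside them were chosen after their values were seen. The members and lists were chosen with earlier results of these data known. Within groups, libraries differed by 8.08 to 42.9 chi-square units per degree of freedom, so none repeats another. Alternatives (scaling, filters, DESeq2 1.42.0, limma 3.58.1, other edgeR tests, a replicate block, left-out libraries, the deposited RPKM, stricter thresholds) are given in the closing section.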

Additional observations from a re-analysis of the deposited data

How the results depend on the processing

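The count of 6 subunit genes higher and 0 lower held in 19 of 22 alternatives. The other 3 gave 7 higher, because Rac1 turned from -0.01 to 0.34 at library size alone and to 0.34 and 0.33 by limma-trend on the deposited RPKM with a pseudocount of 0.1 and 1, which carry no TMM scaling. Poldip2 turned to 0.054, 0.053 and 0.051 in the same 3 settings and was not called there. The log2 fold changes of the 6 genes that rose kept sign and call in all 22 alternatives, from 0.83 for Nox4 to 3.74 for Cybb. The pseudocount of 1 gave 1.36 for Ncf4, 1.38 for Rac2 and 0.83 for Nox4, since it shrinks low genes. With 1 library left out their values ran from 1.30 to 3.61. The number of genes called, 4010 in the fit of the text, was 1686 at an adjusted p under 0.01 and 1541 with an absolute log2 fold change of at least 1. It ranged from 2009 (without WT 2) to 4819 (without dEx51 6) with 1 library left out, and was 2388 without dEx51 5. The difference in the log2 ratio of Rac2 to Rac1 was 2.32 to 2.69 with 1 library left out and 2.45 from the deposited RPKM. With the replicate block, built from the numbers of the labels, 4468 genes were called and the 7 subunit genes had the same calls. Same-numbered libraries did not deviate together in every pair (r of 0.35, -0.01 and 0.06), so the numbers are not taken as pairs. Depth limits Ncf4 (5 to 8 WT reads) and Rac2 (18 to 24 WT reads), and counting intervals cover counting error only.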
